A study of Mus musculus with 12 samples.

Results

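The 10 genes followed here are quiescence factors of resting B cells: Klf2, Klf3, Klf4, Foxo1, Foxo3, Foxp1, Btg1, Btg2, Tob1 and Tsc22d3. They were picked by name, and every array probe whose transcript accession belongs to one of them was taken. This gave 10 genes and 14 probes, of 20018 genes and 55681 probes on the array. Foxp1 had 3 probes, Foxo1 and Btg1 had 2 each, and the other genes had 1.

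A resting B cell is not a default state but one that is actively kept, by transcription factors that block growth and by proteins that shorten the life of growth mRNAs. The Krüppel-like zinc finger factors bind CACCC elements, and the forkhead factors of the FOXO class stay in the nucleus as long as PI3K and AKT signalling is low. Antigen receptor and CD40 signals activate PI3K, FOXO proteins leave the nucleus and are degraded, and the cell enters the cycle. BTG and TOB proteins bridge the CCR4-NOT deadenylase to mRNAs, and Tsc22d3 encodes GILZ, a leucine zipper protein induced by glucocorticoids and by FOXO factors.

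RNA of mouse splenic B cells was measured on 12 one-colour Agilent arrays, 3 in each of 4 groups. Knockout cells came from B1-8hi:Sub1fl/fl-Mb1-Cre mice and control cells from B1-8hi:Sub1fl/fl mice, so both genotypes carried the floxed Sub1 alleles and B1-8hi, a knock-in heavy chain whose antibodies bind the hapten NP. Mb1-Cre is inserted in Cd79a and acts from early B cell development, and the controls carried no Cre, so Sub1 loss, Cre and a damaged Cd79a copy cannot be told apart. The groups were knockout stimulated, control stimulated, knockout resting and control resting cells. Stimulated cells had been cultured for 72 h with IL-2 (100 U/mL), IL-4 (5 ng/mL), IL-5 (1.5 ng/mL), CD40 ligand (0.2 ng/mL) and NP-ficoll (0.01 ng/mL), an antigen for the B1-8hi receptor. The labels do not say whether resting cells were cultured, so the stimuli and the time in culture cannot be told apart. The age and number of mice are not given. Separate animals are not stated for the replicates, so the p-values cover only how these samples vary, and that variation may be technical.

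Levels below are log2 intensities relative to the 75th percentile of each array, and changes are log2 differences with their standard error (SE). A change passed the test where limma's p, adjusted by Benjamini-Hochberg over 22981 features, was under 0.05. Replicates 1 and 2 of every group lay on slide 1 and replicate 3 on slide 2. Per array 24.3% to 76.8% of spots stood well above background and none was saturated. By replicate the shares were 64.5%, 42.6% and 76.8% in knockout stimulated and 36.6%, 24.3% and 60.1% in control stimulated cells. They were 40.5%, 48.1% and 76.6% in knockout resting and 41.8%, 52.9% and 64.1% in control resting cells, so detection differed between groups and slides. Precision is set by the 3 arrays per group. Sub1, the targeted gene, changed by -1.21 in stimulated knockout cells by its brighter probe (SE 0.19, adjusted p = 0.0114). In resting knockout cells that probe changed by -0.38 (SE 0.19, adjusted p = 0.268). The dimmer Sub1 probe had means of -1.16 in knockout stimulated and -1.26 in control stimulated cells. Its means were -1.14 in knockout resting and -0.28 in control resting cells, so the probes differed in pattern. The labels do not say whether either probe lies in the deleted part. Only control replicate 1 had signal of the Y-linked gene Ddx3y well above background, in both states, so results are also given without its arrays where that ended a call. The summed signal of 10 B cell markers was 535 to 650 times the 75th percentile in knockout stimulated, 493 to 695 in control stimulated, 697 to 826 in knockout resting and 1040 to 1220 in control resting cells. The sum for 11 macrophage and monocyte markers was 27.6 to 35.9, 11.3 to 27.1, 74.8 to 106 and 36.2 to 55.6 in the same order of groups. For 6 NK cell markers it was 161 to 353, 28.9 to 30, 7.5 to 10.8 and 5.53 to 8.98. None of these markers was below background on every array. The B cell markers include Cd79a, the Cre locus. It changed by -1.54 in resting knockout cells (limma adjusted p = 0.0948) and by -1.10 in stimulated knockout cells (limma adjusted p = 0.0343). Fewer cells of a type and less RNA per cell cannot be told apart in such bulk samples.

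The promoters of the 5 genes that fell in both genotypes are shown to let a reader see the elements that the KLF and FOXO members themselves could bind. The windows hold 250 bases before and 50 after a RefSeq start in GRCm38.p6, written 5′ to 3′ on the gene's strand. Capitals mark the KLF core CACCC (read on the other strand as GGGTG) and the forkhead core TGTTTAC (read on the other strand as GTAAACA). They lie at chrX:140600473-140600772 (minus strand, the most upstream of 3 starts of Tsc22d3), chr5:64803271-64803570 (plus), chr3:52268087-52268386 (plus), chr8:72318812-72319111 (plus) and chr10:96616751-96617050 (plus).
Tsc22d3: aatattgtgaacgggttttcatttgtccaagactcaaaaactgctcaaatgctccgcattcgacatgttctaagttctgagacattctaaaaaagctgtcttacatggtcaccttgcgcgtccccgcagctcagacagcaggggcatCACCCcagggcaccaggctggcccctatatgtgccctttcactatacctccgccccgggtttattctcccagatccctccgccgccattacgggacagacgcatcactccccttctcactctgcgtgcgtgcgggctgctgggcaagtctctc
Klf3: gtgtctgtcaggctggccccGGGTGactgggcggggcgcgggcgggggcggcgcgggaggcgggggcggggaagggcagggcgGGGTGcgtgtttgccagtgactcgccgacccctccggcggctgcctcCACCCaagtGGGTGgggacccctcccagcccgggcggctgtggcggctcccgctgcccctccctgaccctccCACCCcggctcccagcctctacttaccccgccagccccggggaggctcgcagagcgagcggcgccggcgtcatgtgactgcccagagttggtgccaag
Foxo1: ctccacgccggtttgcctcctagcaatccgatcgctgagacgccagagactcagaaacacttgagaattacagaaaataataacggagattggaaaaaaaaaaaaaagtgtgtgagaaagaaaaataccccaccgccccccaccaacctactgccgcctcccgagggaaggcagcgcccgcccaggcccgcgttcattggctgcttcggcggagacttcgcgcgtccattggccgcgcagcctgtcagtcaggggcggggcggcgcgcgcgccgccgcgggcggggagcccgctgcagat
Klf2: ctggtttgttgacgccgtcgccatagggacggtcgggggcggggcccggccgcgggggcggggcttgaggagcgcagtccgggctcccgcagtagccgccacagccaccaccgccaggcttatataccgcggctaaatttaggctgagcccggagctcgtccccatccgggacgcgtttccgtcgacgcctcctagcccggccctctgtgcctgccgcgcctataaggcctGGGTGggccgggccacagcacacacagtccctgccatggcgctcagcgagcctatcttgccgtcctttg
Btg1: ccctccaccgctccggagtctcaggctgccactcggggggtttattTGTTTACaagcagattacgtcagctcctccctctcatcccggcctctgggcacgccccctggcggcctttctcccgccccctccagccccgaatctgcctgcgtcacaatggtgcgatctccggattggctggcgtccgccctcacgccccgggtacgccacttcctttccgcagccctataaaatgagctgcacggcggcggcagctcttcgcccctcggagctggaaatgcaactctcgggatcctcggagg
The Klf3 window held 5 copies of the KLF core, Klf2 and this Tsc22d3 window held 1 each, and Foxo1 and Btg1 held none. The forkhead core was found once, in Btg1.

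All 10 genes matched the RefSeq promoter table, with 14 windows because Foxp1 and Tsc22d3 have 3 starts each. The KLF core stood in 7 of 14 windows, 50% against 57.5% of all 32851 windows, counting both strands. The forkhead core stood in 1 of 14 (7.14%) against 3.65% of all windows. The GC box GGGCGG was in 12 of 14 windows (85.7%), against 35.7% of all windows. Each of the 10 genes had it in at least 1 window. The Foxp1 and Tsc22d3 windows without it held 48.7% G and C each, the lowest of the members, where Klf3 held the most (76.7%). The part of base composition was not tested. The cyclic AMP element core TGACG was in 9 of 14 (64.3%) against 20.8%. The Ikaros core TGGGAA was in 3 of 14 (21.4%) against 25.6%, the CCAAT box in 5 of 14 (35.7%) against 37.4%, and the E-box CACGTG in 1 of 14 (7.14%) against 7.15%. No member window held the glucocorticoid core ACANNNTGT, which stood in 6.85% of all windows. A GC box can share letters with a KLF core, and a match of letters is a description, not a measured site.

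The quiescence factors that passed the test after stimulation all fell. In control cells 7 of 10 genes passed the test downwards and none upwards, against 27.8% of all features called in either direction, 13.1% lower and 14.7% higher. Their median change was -0.88, against 0.04 for all features. In knockout cells 5 of 10 passed downwards and none upwards, where 16.1% of all features were called, 5.2% lower and 10.9% higher, with a median of -0.85 against 0.10 for all features. Stimulated and resting levels did not overlap, with stimulated cells below, for 8 of 10 genes in control cells and for 8 of 10 in knockout cells, against 19.5% and 12% of all features. Marker genes of several cell types moved with stimulation. Of 6 NK cell markers 3 rose in knockout cells and 1 in control cells, and none fell. Of 10 B cell markers 3 fell in knockout and 9 in control cells, and of 6 plasma cell markers 3 rose and 1 fell in knockout cells and 5 rose in control cells. Of 5 erythroid markers 4 fell in knockout and 2 in control cells, of 7 dendritic cell markers 3 fell in each genotype, and of 7 granulocyte markers none fell in knockout and 3 in control cells. Summed plasma cell marker signal was 196 to 258 times the 75th percentile in knockout stimulated, 397 to 633 in control stimulated, 159 to 218 in knockout resting and 89.6 to 109 in control resting cells. The part of these markers in the members' changes was not tested.

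**Figure D1:**
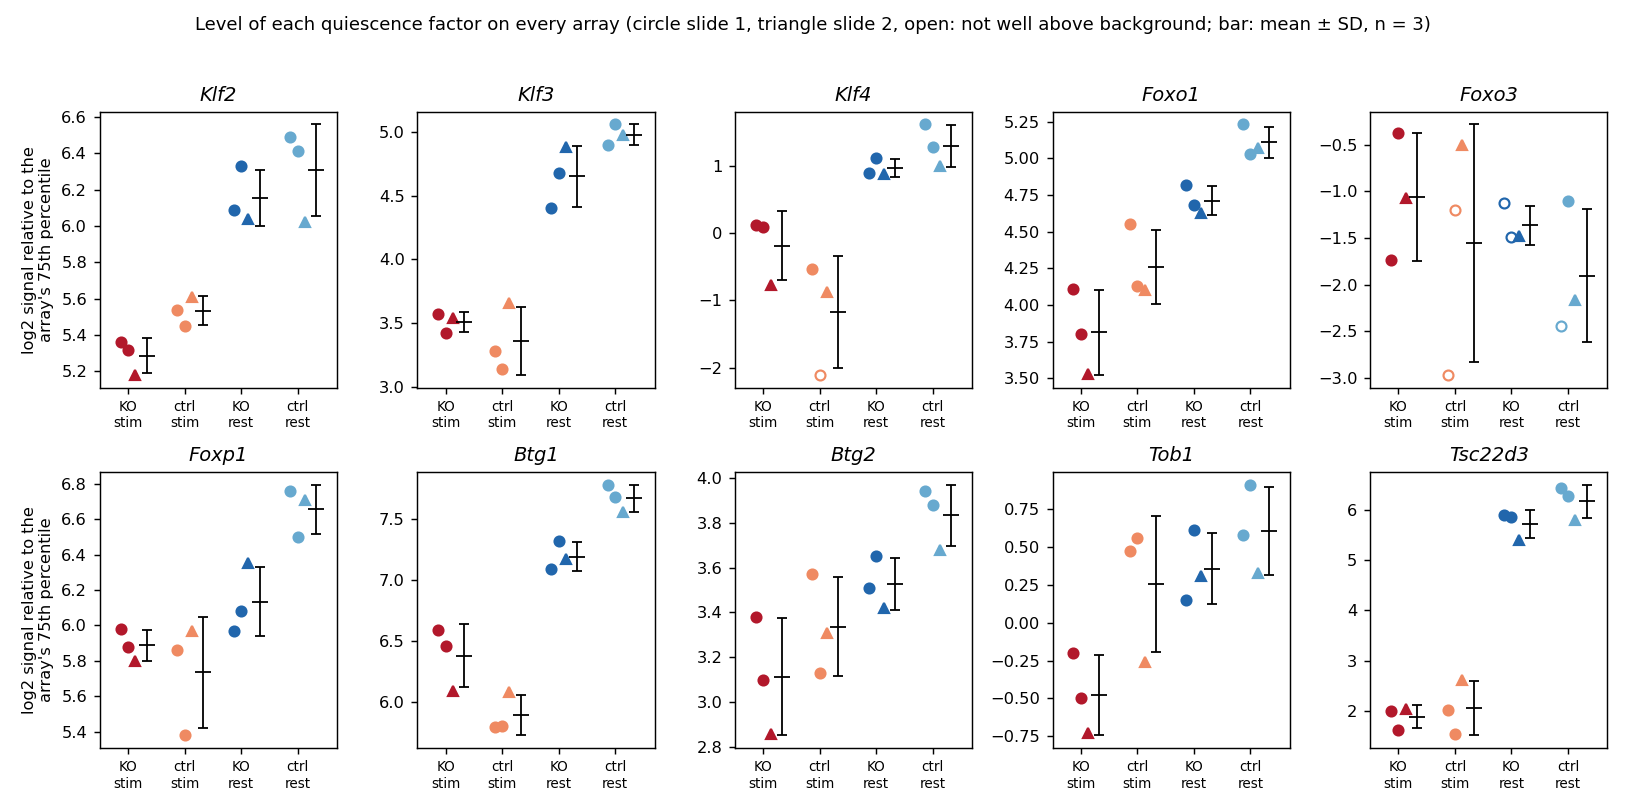
Level of each quiescence factor on every array, as log2 signal relative to the array's 75th percentile, with a panel per gene and its own axis. Circles are slide 1 and triangles slide 2, open symbols were not well above background, and the bars give mean ± SD (n = 3). Tsc22d3 lies between 1.53 and 2.61 on the 6 stimulated arrays and between 5.40 and 6.44 on the 6 resting arrays.

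Tsc22d3, which encodes GILZ and is on chromosome X, changed most among the 10 genes in both genotypes. Its levels were 2.0, 1.61 and 2.03 in knockout stimulated and 2.01, 1.53 and 2.61 in control stimulated cells. They were 5.91, 5.86 and 5.40 in knockout resting and 6.44, 6.29 and 5.81 in control resting cells. All 6 stimulated arrays were below all 6 resting arrays, and the genotypes overlapped within each state. The change was -3.84 in knockout cells (SE 0.30, 14.3-fold, adjusted p = 3.53e-05) and -4.13 in control cells (SE 0.30, 17.5-fold, adjusted p = 1e-05). It was -4.08 on slide 1 and -3.37 on slide 2 in knockout cells, and -4.60 and -3.20 in control cells.

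Klf2, the factor that keeps lymphocytes quiescent and steers their traffic, fell in both genotypes. Its levels were 5.36, 5.32 and 5.18 in knockout stimulated and 5.54, 5.45 and 5.61 in control stimulated cells. They were 6.09, 6.33 and 6.04 in knockout resting and 6.49, 6.41 and 6.02 in control resting cells. The stimulated arrays were all lower than the resting ones, and the resting genotypes overlapped. The change was -0.87 in knockout cells (SE 0.18, 1.82-fold, adjusted p = 0.00845) and -0.77 in control cells (SE 0.18, 1.71-fold, adjusted p = 0.00885). On slide 1 and slide 2 it was -0.87 and -0.86 in knockout cells, and -0.95 and -0.41 in control cells. The call ended without knockout stimulated replicate 2 in knockout cells (-0.88, adjusted p = 0.0619) and without control resting replicate 1 in control cells (-0.68, adjusted p = 0.0618). Without both arrays of control replicate 1 the control change was -0.68 and also missed the threshold (adjusted p = 0.102).

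Klf3, a repressor that recruits CtBP, fell in both genotypes. It read 3.57, 3.42 and 3.54 in knockout stimulated and 3.28, 3.14 and 3.66 in control stimulated cells. It read 4.40, 4.68 and 4.88 in knockout resting and 4.90, 5.06 and 4.98 in control resting cells. All stimulated arrays were below all resting arrays. The change was -1.14 in knockout cells (SE 0.20, 2.20-fold, adjusted p = 0.00291) and -1.62 in control cells (SE 0.20, 3.07-fold, adjusted p = 0.000162). The difference of these changes, knockout minus control, was 0.48 (SE 0.28, adjusted p = 0.606).

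Klf4, a FOXO target that restrains the division of mouse B cells, fell in control cells. It was well above background on 11 of 12 arrays, the exception being control stimulated replicate 2. The levels were 0.12, 0.10 and -0.77 in knockout stimulated and -0.53, -2.11 and -0.88 in control stimulated cells. They were 0.90, 1.12 and 0.88 in knockout resting and 1.62, 1.28 and 1.00 in control resting cells. Stimulated arrays lay below resting arrays in both genotypes, and the genotypes overlapped in each state. Klf4 fell by 2.47 on the log2 scale in control cells (SE 0.39, 5.56-fold, adjusted p = 0.000874). Its change of -1.15 in knockout cells missed the threshold (SE 0.39, adjusted p = 0.0759), and passed without control stimulated replicate 2 (-1.15, adjusted p = 0.0191), since all groups share an estimate of spread. Monocytes also express Klf4. Of the 11 macrophage and monocyte markers, 7 fell in knockout and 6 in control cells on stimulation, and their part in the Klf4 change was not tested.

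Foxo1, the forkhead factor that drives Il7r and the Rag genes, fell in both genotypes. Its brighter probe read 4.11, 3.80 and 3.53 in knockout stimulated and 4.55, 4.13 and 4.10 in control stimulated cells. It read 4.82, 4.68 and 4.63 in knockout resting and 5.23, 5.03 and 5.07 in control resting cells. Control arrays and knockout arrays were each lower after stimulation without overlap. The change was -0.89 in knockout cells (SE 0.20, 1.86-fold, adjusted p = 0.013) and -0.85 in control cells (SE 0.20, 1.80-fold, adjusted p = 0.00966). The second probe gave -0.76 in knockout cells and -0.80 in control cells, and passed the test in both when every probe was tested (adjusted p = 0.033 and 0.0157). The call ended in knockout cells without knockout resting replicate 1 (-0.84, adjusted p = 0.0674), knockout stimulated replicate 2 (-0.89, adjusted p = 0.087) or knockout stimulated replicate 3 (-0.75, adjusted p = 0.0507). In control cells it ended without control resting replicate 1 (-0.79, adjusted p = 0.0566).

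Foxo3, the other FOXO factor followed, was at the edge of detection. It was well above background on 7 of 12 arrays and entered the test only through the knockout stimulated group, the one group in which all 3 arrays detected it. Levels ranged between -1.74 and -0.37 in knockout stimulated, -2.97 and -0.50 in control stimulated, -1.49 and -1.13 in knockout resting and -2.44 and -1.10 in control resting cells. All 4 groups overlapped. The change was 0.31 in knockout cells (95% interval -1.01 to 1.62) and 0.35 in control cells (-0.97 to 1.66), so the direction could not be told.

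Foxp1, a forkhead repressor that B cells need in development, fell in control cells. Its brightest probe read 5.98, 5.88 and 5.80 in knockout stimulated and 5.86, 5.38 and 5.97 in control stimulated cells. It read 5.97, 6.08 and 6.35 in knockout resting and 6.76, 6.50 and 6.71 in control resting cells. Control resting arrays were above all others, while the other 3 groups overlapped. The change was -0.24 in knockout cells (SE 0.20, adjusted p = 0.525) and -0.92 in control cells (SE 0.20, adjusted p = 0.00636). The knockout change passed the test under other scalings, at -0.58 with the percentile over spots detected on all arrays (adjusted p = 0.0126) and -0.71 with quantile normalization (adjusted p = 0.00363). Without both arrays of control replicate 1 the control change was -0.93 and missed the threshold (adjusted p = 0.0566). The 2 dimmer probes gave -0.24 and -0.87 in knockout cells, neither past the test, and -0.90 and -2.14 in control cells, both past it when every probe was tested.

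Btg1, an antiproliferative protein of the BTG family that keeps mouse T cells quiescent together with Btg2, fell in both genotypes. Its brighter probe read 6.59, 6.46 and 6.09 in knockout stimulated and 5.79, 5.80 and 6.08 in control stimulated cells. It read 7.09, 7.32 and 7.17 in knockout resting and 7.78, 7.68 and 7.56 in control resting cells. The 4 groups did not overlap, with control stimulated cells lowest, then knockout stimulated, knockout resting and control resting cells. The distance of the lowest pair was small, 6.09 for knockout stimulated replicate 3 and 6.08 for control stimulated replicate 3. The change on stimulation was -0.82 in knockout cells (SE 0.19, 1.76-fold, adjusted p = 0.0138) and -1.78 in control cells (SE 0.19, 3.44-fold, adjusted p = 6.69e-05). The knockout call ended without knockout resting replicate 2 (-0.76, adjusted p = 0.0691), knockout stimulated replicate 2 (-0.86, adjusted p = 0.0762) or knockout stimulated replicate 3 (-0.67, adjusted p = 0.0515).

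The dimmer Btg1 probe moved further than the brighter one. It read 2.09, 1.75 and 1.14 in knockout stimulated and 1.21, 0.89 and 0.87 in control stimulated cells. It read 4.27, 4.62 and 4.24 in knockout resting and 5.37, 4.92 and 4.90 in control resting cells. The change was -2.72 in knockout cells (6.59-fold, adjusted p = 9.82e-05) and -4.07 in control cells (16.8-fold, adjusted p = 5.44e-06), with all probes tested. Both probes were well above background on all 12 arrays and carry the same transcript accession. Why they differ in size was not tested.

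**Figure D2:**
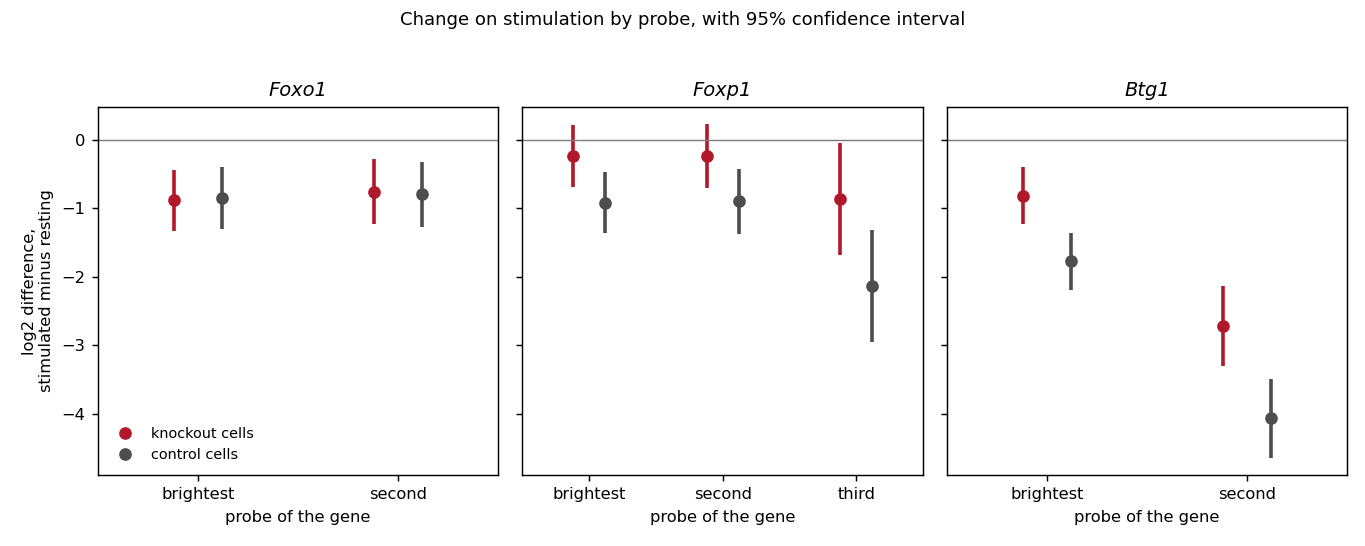
Change on stimulation, as a log2 difference of stimulated minus resting cells, for each probe of Foxo1, Foxp1 and Btg1, with 95% confidence intervals. Red points are knockout cells and grey points control cells. The probes of Foxo1 lie between -0.89 and -0.76, while the dimmer Btg1 probe reaches -2.72 in knockout and -4.07 in control cells.

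Btg2 and Tob1, the remaining members of the deadenylase-binding family, passed the test in neither genotype. Btg2, also a p53 target, ranged between 2.86 and 3.38 in knockout stimulated, 3.13 and 3.57 in control stimulated, 3.42 and 3.65 in knockout resting and 3.68 and 3.94 in control resting cells. Stimulated arrays were below resting arrays in each genotype, yet the changes of -0.41 (adjusted p = 0.211) in knockout and -0.50 (adjusted p = 0.0915) in control cells missed the threshold. Of 26 other settings, Btg2 passed the test in 2 in knockout cells (adjusted p down to 0.00641) and in 5 in control cells (down to 0.00122). Tob1 ranged between -0.73 and -0.20 in knockout stimulated, -0.26 and 0.56 in control stimulated, 0.15 and 0.61 in knockout resting and 0.33 and 0.91 in control resting cells. Knockout stimulated arrays lay below all resting arrays and overlapped with control stimulated replicate 3, and the other 3 groups overlapped. The change was -0.84 in knockout cells (SE 0.27, adjusted p = 0.0592) and -0.35 in control cells (SE 0.27, adjusted p = 0.409). The knockout change of Tob1 passed the test with the replicate number as a block (adjusted p = 0.023), and without control stimulated replicate 3 (adjusted p = 0.0334).

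**Figure D3:**
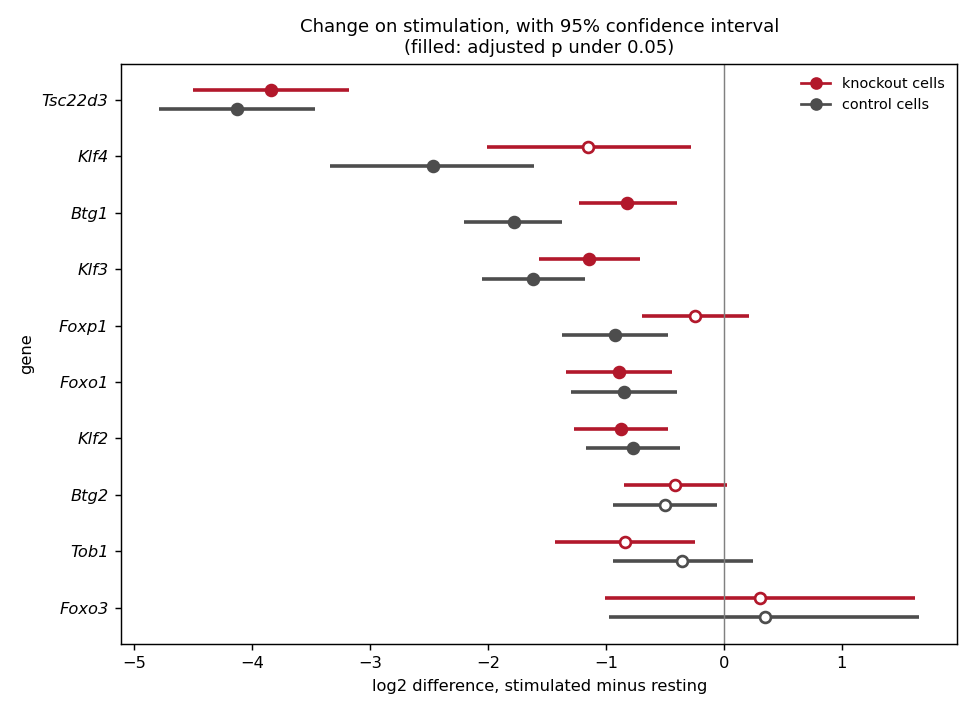
Change of each quiescence factor on stimulation, as a log2 difference of stimulated minus resting cells with 95% confidence intervals, in knockout (red) and control cells (grey). Filled points passed the test. Points of 9 of the 10 genes lie left of 0 in both genotypes, and Foxo3 has the widest intervals.

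The number of stimulation calls depended on how the arrays were scaled. With the percentile taken over spots detected on all arrays, 9 members passed in knockout and 8 in control cells. Of all features, 21.5% and 37.1% were called there. With median scaling 1 and 4 members passed, against 7.32% and 14.6% of all features. With quantile normalization 8 passed in each genotype, against 19.8% of all features in knockout and 28.7% in control cells. The members' median minus that of all features was then -1.23 in knockout and -1.25 in control cells, against -0.96 and -0.92 with the 75th percentile.

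None of the 10 genes passed the test between knockout and control stimulated cells, where limma called 3.46% of all features. That share was 0.158% without knockout stimulated replicate 2, 0.485% without knockout stimulated replicate 1 and 0.662% without control stimulated replicate 1. With the 2 arrays of control replicate 1 left out it was 0.147%. At an unadjusted p under 0.05 there were 3 genes, Tob1, Klf4 and Btg1, against 5082 of 22981 features. The median change of the members was -0.01 and that of all features -0.02. Tob1 differed by -0.74 in knockout stimulated cells (SE 0.27, adjusted p = 0.156), and was negative on both slides (-0.87 and -0.48). Klf4 differed by 0.99 (SE 0.39, adjusted p = 0.179), of which slide 1 gave 1.43 and slide 2 gave 0.11. Btg1 differed by 0.49 (SE 0.19, adjusted p = 0.172), of which slide 1 gave 0.73 and slide 2 gave 0.01. Foxo1 differed by -0.44 (SE 0.20, adjusted p = 0.231), and the remaining 6 genes between -0.25 and 0.50. Groups did not overlap for Klf2, which was below (14% of all features), and for Btg1, which was above (10.9%).

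With the percentile over spots detected on all arrays, which moved the median of all features by 0.40, Klf4, Foxp1 and Btg1 were called higher in stimulated knockout cells (1.40, 0.56 and 0.89; adjusted p = 0.0291, 0.0324 and 0.0158). With median scaling, which moved it by -0.56, the Btg1 and Foxp1 differences were -0.07 and -0.40. NK cell and macrophage marker sums were higher in knockout than in control stimulated cells. Of the 6 NK cell markers 3 were called higher, as were 6 of the 11 macrophage and monocyte markers, while 5 of 6 plasma cell markers were called lower. Their part in the Klf4 and Btg1 differences was not tested.

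In resting cells none of the 10 genes passed the test between knockout and control, where limma called 0.0131% of all features. At an unadjusted p under 0.05 there were 2 genes, Foxp1 and Btg1, against 4534 of 22981 features. In knockout cells 9 members had a negative difference, as did 62.2% of all features. The count of members became 4 with the percentile over detected spots, 8 with quantile normalization and 10 with median scaling. The members' median was -0.33 and that of all features was -0.21. Foxp1 differed by -0.52 (SE 0.20) and Btg1 by -0.48 (SE 0.19), both with adjusted p = 0.233, and the other 8 genes by values between -0.46 and 0.54. Knockout arrays were below control arrays without overlap for 5 genes, Klf3, Foxo1, Foxp1, Btg1 and Btg2, against 26.7% of all features. B cell markers had a median difference of -0.65 and macrophage markers of 1.60 between these groups, and their part was not tested.

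**Figure D4:**
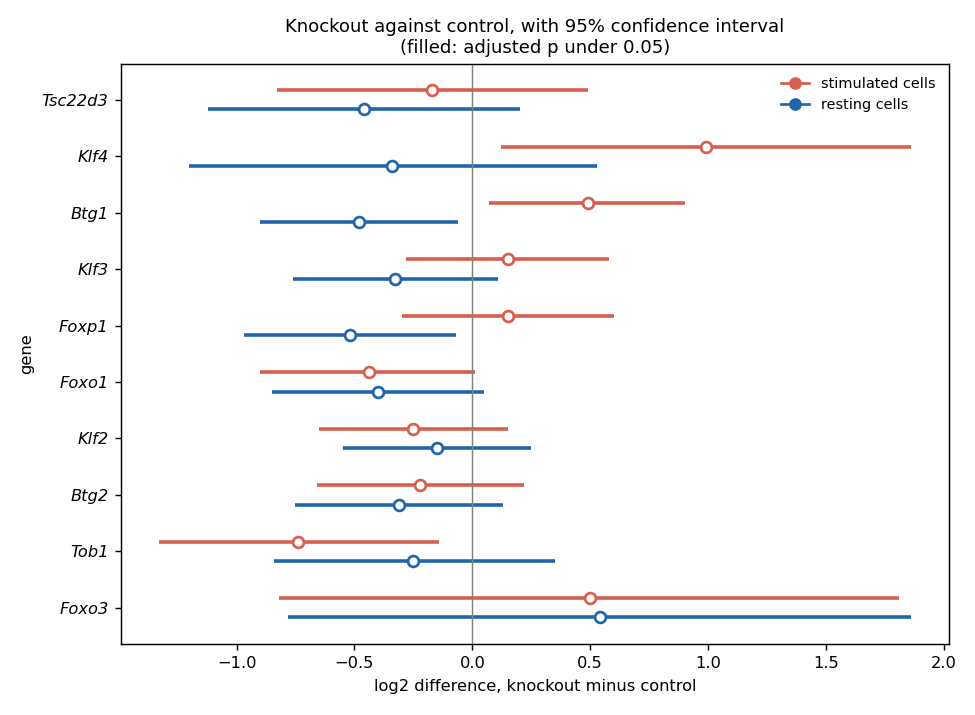
Difference of each quiescence factor between knockout and control cells, as a log2 difference with 95% confidence intervals, in stimulated (red) and resting cells (blue). All points are open because none passed the test. Klf4 and Btg1 lie right of 0 in stimulated cells (0.99 and 0.49) and left of it in resting cells (-0.34 and -0.48).

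Whether the response to stimulation differed by genotype was tested as an interaction, which called 0.144% of all features and none of the 10 genes. At an unadjusted p under 0.05 limma gave 3 genes, against 2445 of 22981 features. Btg1 had 0.97 (95% interval 0.38 to 1.56, adjusted p = 0.198), Klf4 had 1.33 (0.10 to 2.56, adjusted p = 0.428) and Foxp1 had 0.67 (0.04 to 1.31, adjusted p = 0.437). A positive value means a less negative change in knockout than in control cells. The dimmer Btg1 probe gave 1.35 and the dimmest Foxp1 probe 1.27, also not past the test. On slide 1 and slide 2 the values were 1.25 and 0.40 for Btg1, 1.88 and 0.23 for Klf4, and 0.92 and 0.19 for Foxp1. The remaining 7 genes lay between -0.49 and 0.48.

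Genes connected with the quiescence factors were described by 10 lists that share some genes, with 159 of their 182 genes tested. Of all features, 5.2% fell and 10.9% rose on stimulation in knockout cells, and 13.1% fell and 14.7% rose in control cells. The list counts below are to be read beside these shares. The list genes called between genotypes in stimulated cells, Btg3, Ccr7, Pik3r5, Pik3cg, Ccnd2, Odc1 and Egr1, kept their direction when any 1 of the 12 arrays was left out, and each lost its call without knockout stimulated replicate 2 (adjusted p between 0.0959 and 0.266). Egr1 was called in 11 of the 12 fits with 1 array left out, Btg3 in 10, Pik3r5 in 9, Pik3cg in 7, Ccnd2 and Ccr7 in 3 and Odc1 in 2. Of the genes named below, Cr2, Tsc22d1, Nr4a1 and Cdkn1a were well above background on 2 of 3 control stimulated arrays, and Sgk1 and Egr1 on 1 of 3. Cnot9 was well above background on 2 of 3 control stimulated and 1 of 3 knockout resting arrays, and Cdkn2c on 2 of 3 knockout resting arrays. Of 15 measured paralogues of the members, 2 fell and none rose on stimulation in knockout cells, and 4 fell and 1 rose in control cells. Klf6, an immediate early KLF, fell by 1.14 in knockout cells (adjusted p = 0.00255) and by 1.94 in control cells (adjusted p = 4.55e-05). Tsc22d1 fell by 2.43 in knockout cells and by 1.94 in control cells, as its relative Tsc22d3 did. Btg3 went the other way from Btg1 in control cells, where it rose by 1.60 (SE 0.19, adjusted p = 0.000147). Btg3 was also the one paralogue called between genotypes, at -1.32 in stimulated knockout cells (SE 0.19, adjusted p = 0.00904), with group means of 2.84 in knockout stimulated and 4.16 in control stimulated cells.

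Targets of the FOXO and KLF2 factors fell more often than they rose. Of 19 FOXO target genes, 5 fell and 2 rose in knockout cells and 10 fell and 3 rose in control cells. Txnip, an inhibitor of glucose uptake, fell by 2.37 in knockout cells and by 2.20 in control cells. Bcl2l11, which encodes the death-promoting BIM, rose by 3.1 in control cells (adjusted p = 1.98e-05), although FOXO factors are known to activate it. Its interaction of -1.51, a smaller rise in knockout than in control cells, missed the threshold (adjusted p = 0.145). Cited2 rose by 1.60 in knockout cells (adjusted p = 0.000543). Naming stopped at the 4 largest called changes per list and contrast, so Bcl2l11 in knockout and Cited2 in control cells may also have passed. Of 10 KLF2 target genes, 6 fell and 2 rose in knockout cells and 7 fell and 2 rose in control cells. Cdkn1a was among those that rose, by 1.55 in knockout and 1.81 in control cells. Cr2, the complement receptor of mature B cells, changed by -5.99 in knockout and -7.86 in control cells, the largest changes in that list, and Cd55 by -2.42 and -3.01. Ccr7 was the one target gene of either list called between genotypes, 1.00 higher in stimulated knockout cells (adjusted p = 0.0315).

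Of 22 PI3K, AKT and mTOR genes in the signalling above FOXO, 1 fell and none rose in knockout cells and 6 fell and 2 rose in control cells. The shares of all features were 5.2% lower and 10.9% higher in knockout cells, and 13.1% and 14.7% in control cells. Sgk1, a kinase that phosphorylates FOXO proteins, fell by 1.39 in knockout cells (adjusted p = 0.0108) and by 1.85 in control cells (adjusted p = 0.00115). Pik3r5 and Pik3cg, regulatory and catalytic subunits of PI3K gamma, were lower in knockout than in control cells after stimulation, at -1.51 and -1.50 (adjusted p = 0.0136 and 0.0276). Of 19 genes of the CCR4-NOT and poly(A) machinery, none fell and 4 rose in knockout cells, and 4 fell and 5 rose in control cells. Cnot9 rose by 1.13 in knockout and 1.10 in control cells, while Cnot4 fell by 1.33 in control cells.

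The other restraints on the cell cycle did not fall with the quiescence factors as a list. Of 21, 1 fell and 6 rose in knockout cells, and 5 fell and 7 rose in control cells. Cdkn2c, the CDK inhibitor p18, rose by 2.43 in knockout cells (adjusted p = 0.00028) and 2.09 in control cells (adjusted p = 0.000294), and Cdkn1a, the CDK inhibitor p21, rose by 1.55 and 1.81. Of 22 proliferation genes, 20 rose and none fell in each genotype, with medians of 2.68 in knockout and 3.32 in control cells. Of these, Ccnd2 and Odc1 were lower in stimulated knockout than stimulated control cells (-1.20 and -1.08, adjusted p = 0.0273 and 0.042).

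The lists around single members differed in direction. Of 14 glucocorticoid response genes, a list that holds Tsc22d3 itself, 9 fell and 3 rose in knockout cells, and likewise 9 fell and 3 rose in control cells. Zfp36l2, an mRNA decay factor, fell by 2.35 in knockout cells (adjusted p = 0.000224). Only the 4 largest called changes were named for control cells, so its change there is not given and may also have passed. The metallothionein gene Mt1 rose by 2.56 in knockout and 5.30 in control cells, and its interaction of -2.74 passed the test (adjusted p = 0.0427), as it did in only 2 of the 12 fits with 1 array left out (adjusted p up to 0.179). Of 18 immediate early genes, 11 fell and 1 rose in knockout cells and 12 fell and none rose in control cells. Fos was not well above background on any control stimulated array and was at least 11.6-fold lower there than in control resting cells. It fell in knockout cells too (-5.53, adjusted p = 0.000655), with 1 of 3 knockout stimulated arrays well above background. Nr4a1 fell by 2.03 in knockout and 3.73 in control cells. Egr1 was 1.82 higher in stimulated knockout than stimulated control cells (adjusted p = 0.00985). Of 12 p53 targets, to which Btg2 belongs as background though not by this list, none fell in either genotype, and 6 rose in knockout and 7 in control cells.

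**Figure D5:**
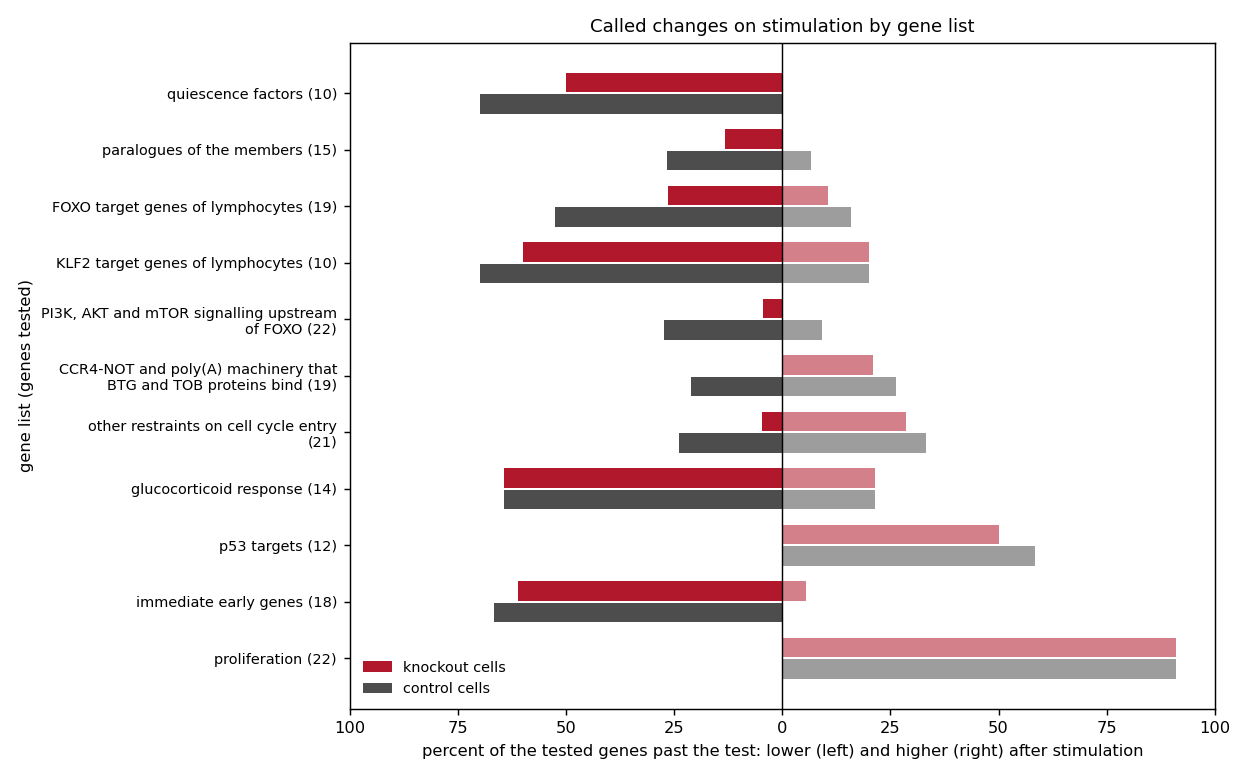
Share of the tested genes of each list that passed the test after stimulation, in percent, lower to the left and higher to the right, in knockout (red) and control cells (grey). The number of genes tested stands beside each list. The quiescence factors reach 50% in knockout and 70% in control cells on the left and nothing on the right, and the proliferation list lies wholly on the right.

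Across the 12 arrays the members' levels mostly moved with one another, which is a description over arrays of 4 groups. Pearson's r was 0.968 between Klf3 and Tsc22d3, 0.955 between Klf2 and Tsc22d3, 0.954 between Klf3 and Btg1 and 0.946 between Foxo1 and Btg2. Foxo3 had a negative r with each other member, between -0.543 and -0.183. Among 12285 other named genes, the pattern of Tsc22d3 was most like that of Fcrl1, an Fc receptor-like surface protein of B cells (r = 0.995), and Rabgap1l (0.991). Klf2 was most like Ppp1r15a (0.986), a phosphatase subunit of the stress response, and Txnip (0.979). Klf3 was most like Leng9 (0.992) and Sh2b3 (0.988), an adaptor that dampens cytokine signalling. Klf4 was most like Endod1 (0.983) and Parp3 (0.981), and Foxo1 like Uhrf1bp1l and Add3 (both 0.972). Foxp1 had an r of 0.979 with Abca3. Btg1 was most like Lrrk2 and Trim34a (both 0.989), and Btg2 like Msl2 and Stk4 (both 0.978). Tob1 reached only 0.92 with Samd4b and 0.914 with Acbd5, and Foxo3 0.872 with Myh7b and 0.871 with Ppp1r14bl.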

How the data were processed

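The arrays held 62976 spots each, 59305 of them not controls. The authors' deposited intensities are processed Cy3 signals on a linear scale, background-subtracted by Agilent Feature Extraction 10.7.3.1 per the file headers, while the submitters' processing notes name version 9.1. Groups came from the sample titles. Outlier spots were set to missing, log2 was taken relative to the 75th percentile of an array's non-control spots, and a probe's spots were averaged. A probe was kept if any group had it well above background on its 3 arrays, and the brightest probe stood for a gene, which gave 22981 features. All 14 member probes passed. Probes were named by matching transcript accessions to RefSeq genes of GRCm38.p6, and promoters come from RefSeq in the same build. No coordinates of the array's older annotation were used.

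limma 3.58.1 in R 4.3.3 fitted the 4 group means (8 residual degrees of freedom, prior 2.55), with 5 contrasts and Benjamini-Hochberg adjustment. The steps were tested on simulated data. Members, lists and tests were chosen with earlier results of these data known. All members and their probes are named, with Sub1 and Cd79a, up to 4 called genes per list and contrast (2 by smallest p where none was called), of which the text gives a selection, and the 2 genes most like each member. Of the genes this rule names, 2 are not reported here.

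Same-numbered arrays deviated together in the stimulated knockout comparison (correlations 0.352, 0.329 and 0.482) and in control stimulation (0.418, 0.428 and 0.506), so the number was also fitted as a block. The correlations were -0.115, 0.204 and 0.393 in the resting comparison and 0.00292, 0.149 and 0.39 in knockout stimulation.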

Additional observations from a re-analysis of the deposited data

Results flagged for a closer look

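The difference of Btg1 between knockout and control cells pointed in opposite directions in the 2 states. By the brighter probe, knockout arrays were above control arrays in stimulated cells (0.49) and below them in resting cells (-0.48). The groups overlapped in neither state. Of all features, 10.9% stood above without overlap in stimulated cells and 26.7% below in resting cells. The closest stimulated arrays read 6.09 and 6.08, and slide 2 gave a difference of 0.01 there. With median scaling both differences were negative, -0.07 in stimulated and -1.08 in resting cells. The test of this difference, the interaction of 0.97, missed the threshold (limma adjusted p = 0.198). The value lay between 0.86 and 1.16 under the other settings, with adjusted p between 0.0539 and 0.881. It was 1.25 on slide 1 and 0.40 on slide 2. The dimmer Btg1 probe gave 1.35. That probe differed by 0.67 in stimulated cells, where the genotypes overlapped, and by -0.68 in resting cells, where they did not.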

How the results depend on the processing

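The 0 calls in resting knockout cells and in the interaction stayed at 0 under all settings run. In stimulated knockout cells the count was 3 with the percentile over spots detected on all arrays and 1 with quantile normalization. Those settings called 10.2% and 2.38% of all features there. Of the members, control stimulation called 4 with median scaling and 4 without a filter on dim probes, against 7. Of all features it called 14.6% and 7.88%, against 27.8%. Knockout stimulation called 9 with the detected-spot percentile, 8 with quantile normalization, 1 with median scaling and 2 without a filter, against 5. Of all features it called 21.5%, 19.8%, 7.32% and 3.26% in that order, against 16.1%. Leaving out each array gave 5 to 7 calls for control stimulation and 2 to 6 for knockout stimulation. Knockout stimulation had 2 without knockout stimulated replicate 2, where 5.99% of all features were called. It had 3 without knockout stimulated replicate 3, where 12.8% were. With the replicate block, 6 members passed in knockout stimulation, and no other count of member calls changed, while the stimulated knockout comparison called 1865 features, against 796.

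The detected-spot percentile moved the median of all features by 0.35 in the resting and 0.40 in the stimulated knockout comparison, and by -0.33 in knockout and -0.38 in control stimulation. Median scaling moved the knockout comparisons by -0.60 in resting and -0.56 in stimulated cells. With the detected-spot percentile 1979 features were called higher and 370 lower in stimulated knockout cells, against 277 and 519, and median scaling gave 81 and 597. Knockout stimulation then gave 1794 higher and 3148 lower, against 2498 and 1194, and control stimulation 2484 and 6035, against 3386 and 3011.

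Directions turned for uncalled differences. With the detected-spot percentile, the resting knockout differences of Klf2, Klf3, Klf4, Btg2 and Tob1 became 0.20, 0.02, 0.02, 0.05 and 0.11. The stimulated knockout differences of Klf2, Btg2 and Tsc22d3 became 0.15, 0.18 and 0.23. The interactions of Foxo1 and Foxo3 were then 0.01 and 0.01, and Foxo3 changed by -0.03 in knockout and -0.04 in control stimulation. With quantile normalization the resting differences of Klf2, Btg2 and Foxo3 were 0.20, 0.04 and -0.04. The stimulated ones of Klf2, Btg2 and Tsc22d3 were 0.20, 0.11 and 0.09, and the interactions of Foxo1, Foxo3 and Klf2 were 0.04, 0.14 and 0. With median scaling Foxo3 differed by -0.07 in resting and -0.06 in stimulated cells, and Klf3, Foxp1 and Btg1 by -0.41, -0.40 and -0.07 in stimulated cells, and the Foxo1 and Foxo3 interactions were 0 and 0. With normexp background correction the Foxo1 interaction was 0.09, and the stimulated differences of Foxo3 and Tsc22d3 were -0.06 and 0. Without both arrays of control replicate 1 the Foxo1 interaction was 0.04 and the stimulated Foxo3 difference -0.21. Leaving out single arrays spanned 0 for the interactions of Btg2 (-0.05 to 0.21), Foxo1 (-0.19 to 0.10), Foxo3 (-0.75 to 0.49) and Klf2 (-0.19 to 0.04). It did so for the stimulated knockout differences of Foxo3 (-0.21 to 1.03), Foxp1 (-0.03 to 0.27) and Tsc22d3 (-0.43 to 0.11), and for Foxo3 on stimulation in knockout (-0.04 to 0.65) and control cells (-0.18 to 1.05). The causes were not tested. Signal near background limits Foxo3, and Klf4 in control stimulated cells.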
